A study of Mus musculus with 15 samples.

Results

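A set of 10 genes of blood vessels was followed through 15 RNA-seq libraries of the mouse pituitary. Each was found by its symbol in the deposited count table, which held 55523 rows, and all 10 were present. They were the vascular endothelial growth factor receptors Kdr and Flt1, the receptor tyrosine kinases Tek and Tie1, the junction proteins Pecam1 and Cdh5, the surface sialomucin Emcn, the fenestral diaphragm protein Plvap, the secreted endothelial protein Egfl7, and Vegfa, the ligand of Kdr and Flt1. The mice carried a germline CRISPR/Cas9 deletion of the pituitary enhancer (PE) in an intron of Nr5a1, the gene for a nuclear receptor of gonadotropes. Heterozygous PE+/- mice, which lacked the enhancer on one chromosome, were the controls, and PE-/- mice lacked it on both, so that no library came from a mouse with 2 intact copies. There were 4 libraries of PE+/- males, 4 of PE-/- males, 4 of PE+/- females and 3 of PE-/- females. The deletion is constitutive, the whole gland was taken, and neither the age of the mice whose glands were sequenced nor the number of mice per library is given in the sources used here. P-values therefore measure the spread between these libraries.

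The anterior pituitary is supplied by portal and sinusoidal capillaries whose endothelium is fenestrated, so that hormones pass readily from the secretory cells into blood. Vegfa made by the tissue binds Kdr, which carries most of the growth signal, and Flt1, which binds the ligand tightly and is known as a decoy. Angiopoietins act through Tek, and Tie1 modifies that signal. Pecam1 and Cdh5 hold endothelial cells together, Plvap forms the diaphragms that span fenestrae and caveolae, and endothelial promoters often carry binding sites for ETS factors such as Erg and Fli1.

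Because the choice of genes did not use ETS cores, the promoters were searched for them. Promoters of RefSeq on GRCm38.p6, from 250 bases before to 50 bases after the start, were given for 7 of the 10 genes (10 entries). The letters AGGAAG or CCGGAA, read on both strands, were present in 6 of the 10 entries and in 5 of the 7 genes. Over all 32851 promoters of that length, AGGAAG was in 35.4%, CCGGAA in 14.9% and either in 45.2%. With only 10 entries, 6 matches were not far from that last share, and no enrichment is read from them. One window of 30 bases per gene is shown, 5′ to 3′ on the gene's strand, with the match in capitals (CTTCCT and TTCCGG are the same letters on the other strand).
Kdr, chr5:75978591-75978620, minus strand: cgcccggcacagTTCCGGggtagtggggga
Flt1, chr5:147726047-147726076, minus strand: aggtgccggggtAGGAAGtgggctggggaa
Tie1, chr4:118490051-118490080, minus strand: ggaagccactggCTTCCTccctttcctgtc
Emcn, chr3:137340892-137340921, plus strand: caagaagggtctCTTCCTgttcaaatccca
Egfl7, chr2:26580982-26581011, plus strand: tgggagacaaacAGGAAGgccatctctctg
A match is a run of letters and not a shown binding site.

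Egfl7 is also the host of the endothelial microRNA miR-126. The mature mmu-miR-126a-3p lies within the gene at chr2:26591402-26591423 on the plus strand and is shown with its seed, bases 2 to 8, in capitals.
mmu-miR-126a-3p: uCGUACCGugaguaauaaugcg
The libraries were of mRNA, so the mature microRNA itself was not measured here. The exons of Egfl7 share 264 of 3581 bases with Gm20532 on the same strand and 64 bases with Agpat2 on the other, and counts in the shared part cannot be assigned with certainty.

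Library totals ran from 12982794 to 30238443 estimated counts. Values are given as CPM, counts scaled to library size with TMM factors over the 15 libraries, and about 4 counts stood for 1 sequenced fragment, so that 12 counts (3 fragments) were taken as the floor. Nr5a1 itself was at 33.7 to 80.1 CPM in PE+/- and at 0 to 0.896 CPM in PE-/- libraries, and the hormone genes Gh and Pomc were abundant in all 15. Hormone levels were not alike, and Pomc ran from 4640 to 114907 CPM within PE-/- males. The hormone gene Prl was at 21936 to 35085 CPM in PE+/- females and at 4453 to 5598 CPM in PE-/- females. In males its genotypes overlapped. The bearing of such differences on the CPM of vessel genes was not tested. In 4 male libraries (PE+/- replicates 2 and 4, PE-/- replicates 3 and 4), 5 posterior lobe markers summed to 53.0 to 174.7 CPM, against 2.76 to 18.7 CPM in the other 11. The posterior lobe has vessels of its own, and results in males were recomputed without these libraries, a choice made after seeing the data.

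The 9 endothelial genes were above the floor in every library, and Vegfa was not. Compared per kilobase of annotated exon (CPM per kb), Plvap had the highest median level, 19.5, and ranged from 6.16 to 143.3 CPM per kb. It was above Cdh5, the next in order at a median of 3.87 CPM per kb, in 15 of 15 libraries. Tek (2.80), Emcn (2.44), Kdr (2.41), Pecam1 (2.09), Tie1 (2.06) and Egfl7 (1.76) followed, as median CPM per kb. From Cdh5 to Egfl7 the ranges of all neighbours in the order overlapped, and Kdr was above Pecam1 in only 5 libraries. Flt1 stood apart at a median of 0.437 CPM per kb, below Egfl7 in 15 of 15 libraries. That gap follows the annotated exon length, 13504 bases for Flt1 and 3581 for Egfl7, as their median counts were 110 and 106. Which of the annotated exons were in use was not measured, so the order per length is approximate. Vegfa was last at 0.0929 CPM per kb.

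**Figure D1:**
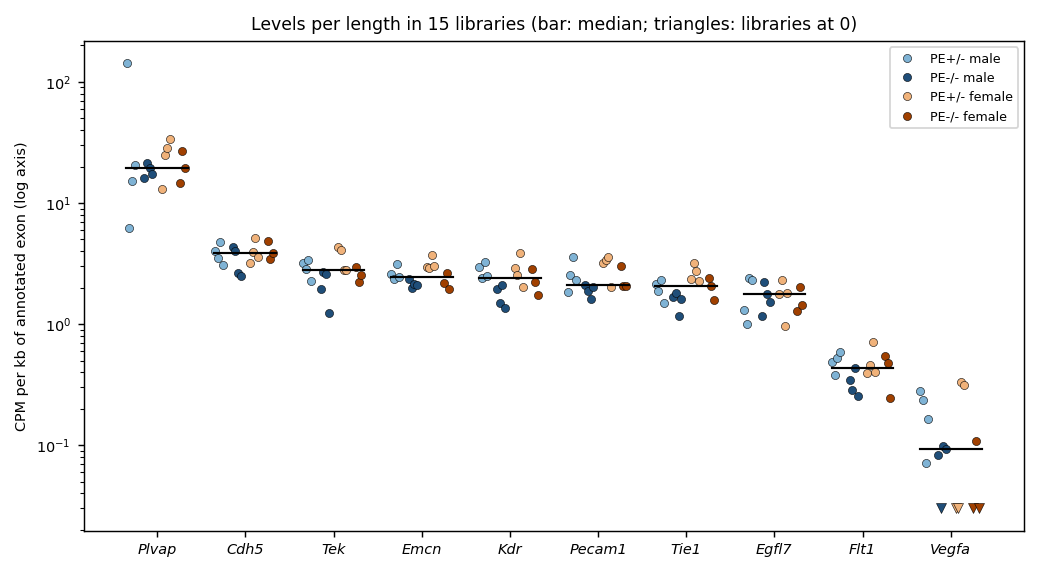
CPM per kilobase of annotated exon (log axis) of each gene in the 15 libraries, coloured by group, with the median over libraries as a bar and libraries at 0 as triangles. Plvap lies above the rest at a median of 19.5, 7 genes overlap between 1.76 and 3.87, and Vegfa has 5 libraries at 0.

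Vegfa was too low to follow. In males its counts were 17, 22, 5 and 11 for PE+/- against 7, 0, 9 and 7 for PE-/-. In females its counts were 0, 0, 26 and 22 for PE+/- against 0, 15 and 0 for PE-/-. It was at 0 in 5 libraries and at or under 12 counts in 10, and it passed the low-count filter in neither comparison of the genotypes within a sex. A difference in Vegfa was not detectable in these libraries, no direction is read from it, and it is left out of the counts of genes higher or lower below.

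In males, the genotype comparison asked whether vessel genes differ once the enhancer is lost on both chromosomes. All 9 tested endothelial genes had a lower mean level in PE-/- than in PE+/- males, against 49.6% of the 17392 genes tested. None of them passed an adjusted p of 0.05 in the quasi-likelihood test of edgeR, against 0.132% of all genes. At an unadjusted p under 0.05 there were 2 (Kdr and Flt1), where 6.14% of all genes lay, and the groups did not overlap for 2 (Kdr and Emcn), where 4.55% of all genes lay. The log2 fold changes ran from -1.32 (Plvap) to -0.07 (Egfl7) with a median of -0.45, while the median over all genes was 0.003. In bulk tissue, fewer endothelial cells and less RNA per cell cannot be told apart.

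Kdr (chr5:75932827-75978458 on mm10, minus strand), the main signalling receptor for Vegfa, had the smallest p of the 9. It was at 26.8, 21.7, 29.2 and 22.7 CPM in PE+/- males and at 17.6, 13.5, 18.9 and 12.2 CPM in PE-/- males. Every PE-/- male library lay below every PE+/- one, at 61.9% of the control mean. The log2 fold change was -0.69 with a standard error of 0.18 and an adjusted p of 0.411 by edgeR. Without the 4 libraries with posterior lobe transcripts it was -0.85 with an adjusted p of 0.76.

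Flt1 (chr5:147561604-147726011, minus strand), the other receptor of Vegfa, was at 6.55, 5.10, 7.07 and 7.88 CPM in PE+/- males and at 4.65, 3.86, 5.90 and 3.47 CPM in PE-/- males. Of the 4 PE-/- libraries, 3 were below the lowest control, and the other lay within the control range. Its log2 fold change was -0.57 ± 0.23 (SE) and its adjusted p 0.743 in the edgeR fit.

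Emcn (chr3:137341067-137432185, plus strand), a sialomucin of capillary and venous endothelium, was at 14.01, 12.8, 16.9 and 13.2 CPM in PE+/- males and at 12.7, 10.8, 11.7 and 11.4 CPM in PE-/- males. The groups did not overlap, but the highest PE-/- library came close to the lowest control. The log2 fold change was -0.29 ± 0.14 (SE) with an adjusted p of 0.855 by edgeR.

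Tek, the angiopoietin receptor, averaged 13.8 ± 2.39 CPM (SD, n = 4) in PE+/- males and 9.97 ± 3.12 CPM (SD, n = 4) in PE-/- males. Tie1, its partner, averaged 9.66 ± 1.78 and 7.69 ± 1.37 CPM (SD, n = 4 each). Pecam1 averaged 16.1 ± 4.67 and 11.8 ± 1.33 CPM (SD, n = 4 each). In these 3 genes the groups overlapped, with log2 fold changes of -0.47, -0.33 and -0.45. Cdh5, the cadherin of endothelial junctions, was at 16.1 ± 3.02 and 14.1 ± 3.89 CPM (SD, n = 4 each). Its groups overlapped, and 2 PE-/- libraries lay below the lowest control. Egfl7 was nearly level at 6.30 ± 2.51 and 5.97 ± 1.56 CPM (SD, n = 4 each).

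The fold change of Plvap rested on a single library. It was at 284.7, 12.2, 30.1 and 40.8 CPM in PE+/- males and at 31.7, 42.6, 38.8 and 34.3 CPM in PE-/- males. The first PE+/- male library was the highest and the second the lowest of all 15. The log2 fold change was -1.32 ± 0.86 (SE), and without that first library it was 0.41, so that the direction turned.

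**Figure D2:**
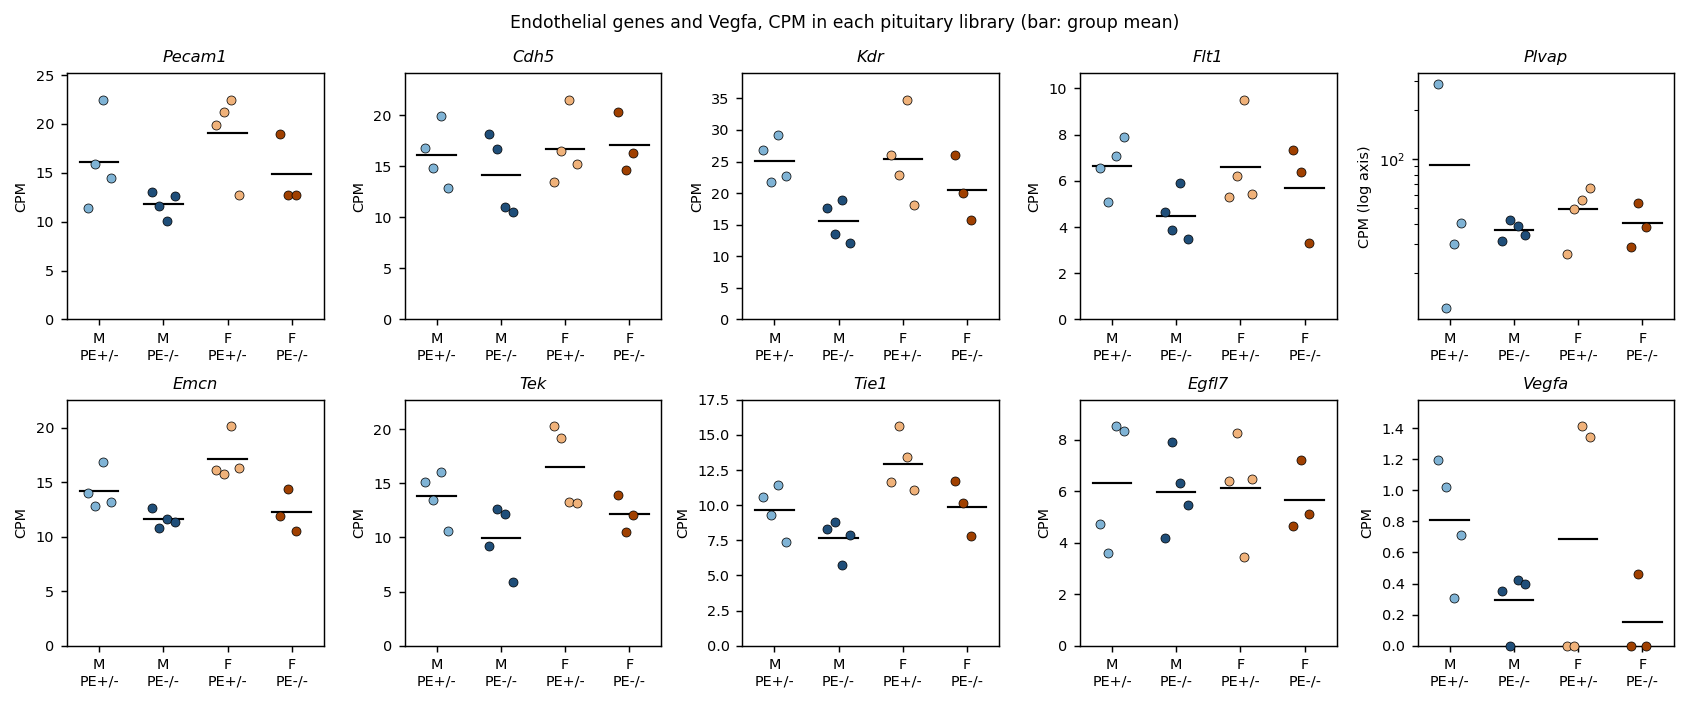
CPM of each gene in every library (points) of the 4 groups, M for males and F for females, with the group mean as a bar; Plvap is on a log axis. Kdr and Emcn in males and Emcn in females have no overlap between the genotypes, and Plvap has 1 PE+/- male library at 284.7 CPM.

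In females, 8 of the 9 tested genes were lower in PE-/- and Cdh5 was not, against 49.8% of 18085 genes. None passed an adjusted p of 0.05 by edgeR, against 1.05% of all genes. Only Emcn had an unadjusted p under 0.05, where 16.1% of all genes lay, and only Emcn had groups that did not overlap, where 18.6% of all genes lay. With only 9 genes, a share of 1 in 9 was near the background on both measures. The median log2 fold change was -0.32, and 0.002 over all genes.

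Emcn was at 16.2, 15.8, 20.2 and 16.3 CPM in PE+/- females and at 11.9, 14.4 and 10.5 CPM in PE-/- females. All 3 PE-/- libraries lay below the lowest control, at 71.8% of the control mean. Its log2 fold change was -0.48 ± 0.18 (SE) with an adjusted p of 0.236 by edgeR. Emcn was the one gene of the 10 with separate genotypes in each sex. Within a sex, 4.55% of all genes were separate in males and 18.6% in females. The share of all genes separate in both sexes was not counted, here or for the genes below.

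Kdr overlapped between the genotypes in females. It was at 26.1, 22.9, 34.8 and 18.1 CPM in PE+/- and at 26.0, 19.96 and 15.7 CPM in PE-/- females, a log2 fold change of -0.32 ± 0.27 (SE). Flt1 was at 5.31, 6.19, 9.52 and 5.43 CPM in PE+/- and at 7.35, 6.40 and 3.33 CPM in PE-/- females. The PE-/- libraries of Flt1 lay on both sides of most controls, and its log2 fold change of -0.23 became 0.05 without PE-/- female replicate 3.

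Tek was at 20.3, 19.2, 13.3 and 13.2 CPM in PE+/- females and at 13.95, 10.5 and 12.1 CPM in PE-/- females, with a log2 fold change of -0.45 ± 0.23 (SE). Tie1 averaged 12.95 ± 2.05 CPM (SD, n = 4) and 9.90 ± 1.96 CPM (SD, n = 3), and Pecam1 19.1 ± 4.37 and 14.8 ± 3.57 CPM. For Tek and Tie1, 2 of the 3 PE-/- libraries were below the lowest control, and for Pecam1 none was. Plvap (49.6 ± 17.2 and 40.4 ± 12.5 CPM), Egfl7 (6.13 ± 1.996 and 5.65 ± 1.36 CPM) and Cdh5 (16.7 ± 3.48 and 17.1 ± 2.93 CPM) differed by less than their spread (SD, n = 4 and n = 3).

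A fit of all 15 libraries with sex as a term was added after seeing the data. All 9 endothelial genes had a log2 fold change below 0 in it, against 48.7% of 19286 genes, and none passed the adjusted threshold by the quasi-likelihood test, against 1.17%. Of the 9, 5 (Emcn, Kdr, Tek, Tie1 and Pecam1) had an unadjusted p under 0.05, where 12.7% of all genes lay. Emcn had a log2 fold change of -0.38 ± 0.11 (SE) and an adjusted p of 0.113 by edgeR. DESeq2 placed Emcn past the threshold at -0.39 with an adjusted p of 0.0177, and over all 23 alternatives its adjusted p ran from 0.0177 to 0.263. Kdr was at -0.51 ± 0.17 (SE) with an adjusted p of 0.175, and Tek at -0.45 ± 0.17 (SE) with 0.263, both by edgeR. Without the 4 posterior lobe libraries 8 of the 9 were below 0, since Cdh5 moved to 0.0002, and the values for Emcn, Kdr and Tek were -0.44, -0.50 and -0.46. Plvap was at 0.06 when PE+/- male replicate 1 was left out.

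**Figure D3:**
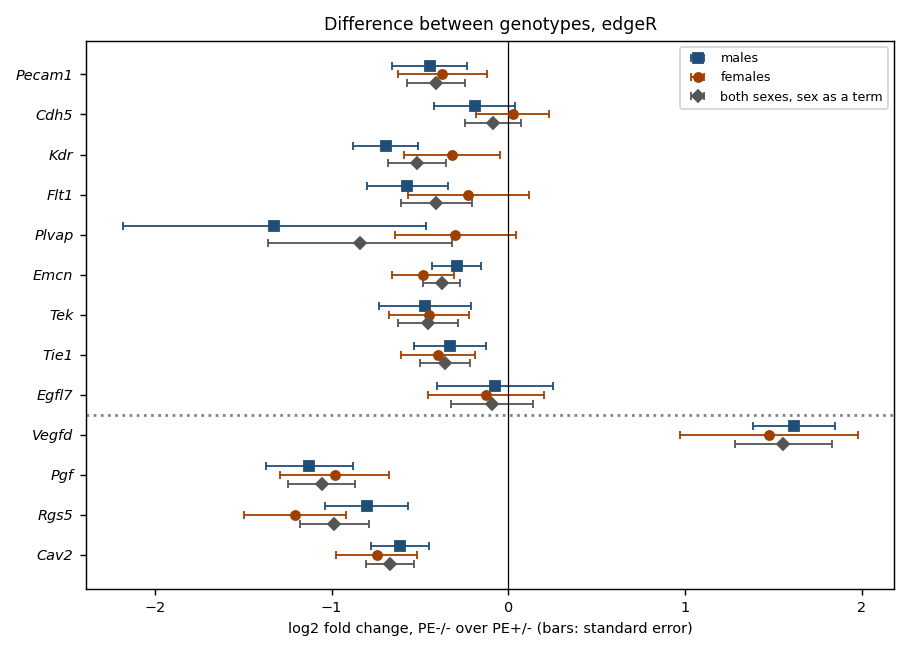
Log2 fold change of PE-/- over PE+/- (points) with its standard error (bars) for the 9 endothelial genes and, below the dotted line, 4 genes of the lists, in males, in females and in both sexes with sex as a term. Most endothelial genes lie below 0, and the bars of Kdr in males and of Emcn in females end well short of it. Plvap in males has the longest bar, and Vegfd is the one gene shown well above 0.

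The sexes were compared next. In PE+/- mice 6 of the 9 endothelial genes were higher and 3 lower in females, and none passed the adjusted threshold, against 0.67% of 17163 genes. The groups overlapped for all 9. Tie1 had the lowest p, with a log2 fold change of 0.43 ± 0.20 (SE) and an adjusted p of 0.399 by edgeR. Plvap was at -0.90 ± 0.88 (SE) and at 0.84 without PE+/- male replicate 1. In PE-/- mice 8 of the 9 tested genes were higher in females, against 49.7% of 18217 genes above 0, and Egfl7 was the other. None passed there either, against 0.0494%, and the log2 fold changes ran from -0.08 to 0.40.

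The interaction of genotype and sex tested whether the genotype difference itself differed between males and females. None of the 9 endothelial genes passed the threshold, against 0.161% of 19286 genes. Kdr had an interaction of 0.38 ± 0.32 (SE) on the log2 scale and an adjusted p of 0.782 by edgeR, and Emcn one of -0.19 ± 0.21 (SE) with 0.854. The separation of Kdr in males and its overlap in females is therefore not shown to be a difference between the sexes.

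The endothelial genes varied together within groups to different degrees. Over the 15 libraries, after the group mean of log2 CPM was subtracted, Kdr and Flt1 had a Pearson correlation of 0.81, Cdh5 and Tie1 of 0.66, and Flt1 and Emcn of 0.64. Over the 9 genes 27 of 36 pairs were positive, with a median of 0.19. Pairs with Egfl7 had a median of -0.04, with 2 of 8 positive, and pairs with Plvap one of 0.08, with 6 of 8 positive and the lowest, with Pecam1, at -0.54. Among the other 7 genes, a split made after seeing the values, 20 of 21 pairs were positive with a median of 0.36. These are descriptions, since the points share libraries, depth and scaling.

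Of 11925 genes with a mean of at least 5 CPM, the 8 most like the mean of the 9 endothelial genes by the same measure were Surf2 (0.92), Pafah1b2 (0.86), H2-Q1 (0.85), Zfp971 (0.85), C130089K02Rik (0.85), Map3k20 (0.84), Ccdc191 (0.84) and Zbtb11 (0.83). None of them was in the vessel lists used here. The mean leaned on Plvap, whose spread was the widest, and without Plvap the 3 most like were H2-Q1 (0.85), Ttc4 (0.81) and Cyyr1 (0.80), the last of which is in the endothelial list. For Vegfa the 5 most like were Fam71e1, Phf21b, Trappc6b, Gm44503 and Eif4g1 (0.86 to 0.80), with most of its values at or under the floor.

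The other ligands and receptors of the family were measured better than Vegfa. Vegfb, Vegfc, Vegfd, Pgf, Flt4, Nrp1 and Nrp2 were all tested, 7 genes. Within a sex none passed the adjusted threshold by the quasi-likelihood test of edgeR, while 3 in males (Vegfd, Pgf and Nrp2) and 3 in females (Vegfd, Pgf and Vegfc) had groups that did not overlap. In the fit of both sexes Vegfd rose and Pgf fell past the threshold. Vegfd is a ligand of Flt4, the receptor of lymphatic vessels, and Pgf a ligand of Flt1. Of all genes, 4.55% in males and 18.6% in females had separate groups, as given above. This list was chosen with earlier results of these data known, so its 3 in 7 is no test of the family.

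Vegfd (chrX:164373378-164402650, plus strand) was at 29.9, 23.5, 26.3 and 18.02 CPM in PE+/- males and at 80.4, 89.0, 82.3 and 48.7 CPM in PE-/- males. In females it was at 30.8, 39.9, 7.72 and 43.7 CPM in PE+/- and at 82.8, 83.6 and 89.8 CPM in PE-/-. Every PE-/- library was above every control of either sex. The log2 fold change was 1.62 ± 0.23 (SE) in males with an adjusted p of 0.0593, 1.48 ± 0.50 (SE) in females with 0.206, and 1.56 ± 0.27 (SE) in both sexes with 0.0151, all by edgeR. Without the 4 posterior lobe libraries the values were 1.59 in males and 1.53 in both sexes, the latter with an adjusted p of 0.0629 by edgeR, so that the call was lost. In males Vegfd passed by DESeq2 (adjusted p 2.24e-07) and by edgeR without PE-/- male replicate 4 (adjusted p 0.0178).

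Pgf (chr12:85166635-85177790, minus strand) was at 6.06, 10.1, 7.80 and 8.79 CPM in PE+/- males and at 3.94, 2.52, 3.79 and 4.78 CPM in PE-/- males. In females it was at 3.83, 7.61, 8.10 and 4.88 CPM in PE+/- and at 3.33, 3.15 and 2.84 CPM in PE-/-. The genotypes were separate in each sex, a trait whose share over all genes was not counted. Pgf had a log2 fold change of -1.12 ± 0.25 (SE) in males with an adjusted p of 0.284, -0.98 ± 0.31 (SE) in females with 0.177, and -1.06 ± 0.19 (SE) in both sexes with 0.0164 by edgeR. Without the 4 posterior lobe libraries the last was -1.02 with an adjusted p of 0.0654, past the threshold no longer.

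Vegfc, a lymphatic growth factor, and Nrp2, a co-receptor, were singled out after their values were seen, because their genotype differences had opposite signs in the sexes. In males Vegfc was at 17.1, 18.1, 16.5 and 13.9 CPM for PE+/- and 14.6, 14.6, 11.05 and 11.8 CPM for PE-/-, which overlapped. In females it was at 10.4, 10.96, 9.41 and 9.94 CPM for PE+/- and 15.8, 12.2 and 13.9 CPM for PE-/-, which did not overlap. Its interaction was 0.79 ± 0.20 (SE) on the log2 scale with an adjusted p of 0.172 by edgeR and of 0.0227 by DESeq2. Nrp2 averaged 27.1 ± 6.71 and 16.5 ± 3.44 CPM in PE+/- and PE-/- males and 14.4 ± 4.81 and 21.3 ± 3.91 CPM in females, with an interaction of 1.28 ± 0.36 (SE) and an adjusted p of 0.204. Neither difference between the sexes passed the quasi-likelihood test of edgeR.

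**Figure D4:**
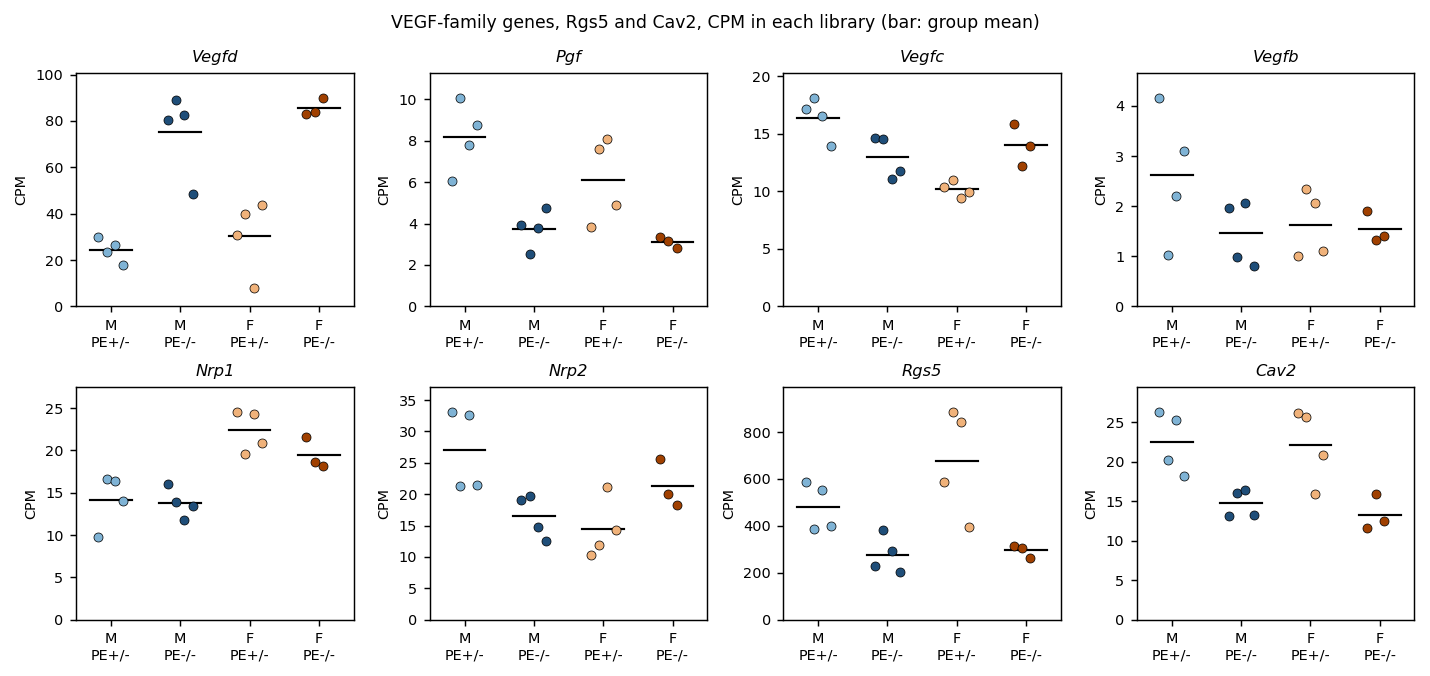
CPM of 6 genes of the VEGF family and of Rgs5 and Cav2 in every library (points) of the 4 groups, M for males and F for females, with the group mean as a bar. Vegfd lies at 48.7 CPM or more in all 7 PE-/- libraries and at 43.7 CPM or less in the 8 controls, and Pgf, Rgs5 and Cav2 are lower in PE-/- of each sex.

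Among the angiopoietins, the phosphatase Ptprb and Svep1, 4 of 5 genes were tested, 2 higher and 2 lower in each sex, and none passed. The smallest p belonged in males to Svep1 (log2 fold change -1.52 ± 0.83 SE) and to Angpt2 (0.39 ± 0.21 SE), an antagonist of Tek in many settings. In females it belonged to Angpt1 (-1.10 ± 0.41 SE), the agonist of Tek, and to Angpt2 (0.57 ± 0.30 SE).

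A wider list of 25 endothelial genes gave 14 of 22 tested genes lower in males and 17 of 23 in females, with medians of -0.20 and -0.32 and none past the threshold by the quasi-likelihood test of edgeR. In males the smallest p belonged to Cldn5, a tight junction protein (1.36 ± 0.32 SE), and Ly6c1 (-0.67 ± 0.18 SE), and in females to Ramp2 (4.35 ± 1.05 SE) and the ETS factor Fli1 (-0.62 ± 0.19 SE). DESeq2 placed Cldn5 in males (adjusted p 0.0152) and Ramp2 in females (7.96e-05) past the threshold, and edgeR did so for Ramp2 without PE-/- female replicate 1, in which it was low (log2 fold change 4.92, adjusted p 0.0105). Ramp2 jumped between 29 to 104 counts in 10 libraries and 1835 to 3138 counts in 5. The 5 were found in all groups but PE+/- females, so that its fold change follows which libraries are high. The annotated gene overlaps Vps25 on the same strand, and how counts were assigned between them was not tested. The summed level of the 25 genes overlapped between genotypes, at 306.3 to 373.5 CPM in PE+/- males, 260.0 to 365.1 CPM in PE-/- males, 324.5 to 403.1 CPM in PE+/- females and 334.7 to 370.0 CPM in PE-/- females. These sums hold 96.9 to 111.9 CPM of Ramp2 in the 5 libraries where it was high. Without Ramp2 the other 24 genes summed to 269.2 to 335.5 CPM in PE+/- males against 253.2 to 277.1 CPM in PE-/- males, and to 321.9 to 400.6 CPM against 260.8 to 332.3 CPM in females, and the genotypes still overlapped in each sex.

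Of the Notch genes of vessels, 8 were tested, with 3 higher and 5 lower in males and 4 each way in females. The smallest p belonged to Hey2 (0.54 ± 0.23 SE) and Jag2 (1.37 ± 0.70 SE) in males and to Hey1 (0.63 ± 0.21 SE) and Jag2 (1.72 ± 0.66 SE) in females. Jag2 leaned on single libraries, at 0.32 without PE-/- male replicate 3 and at 0.56 without PE-/- female replicate 1. In males it was at -0.32 without the posterior lobe libraries. Of 6 genes of caveolae, 5 were lower in males and 3 in females. Cav2, a caveolar coat protein, was at 18.2 to 26.3 CPM in PE+/- males and 13.1 to 16.4 CPM in PE-/- males, and at 15.9 to 26.2 CPM in PE+/- females and 11.5 to 15.9 CPM in PE-/- females. The genotypes did not overlap in either sex, though in females they nearly touched, and the share of all genes with this trait was not counted. In both sexes together Cav2 fell by 0.67 on the log2 scale (SE 0.13, adjusted p 0.0261 by edgeR). The call was lost in 7 of 15 fits that left out 1 library, with an adjusted p of up to 0.0956 without PE-/- female replicate 3, and without the 4 posterior lobe libraries (-0.76, adjusted p 0.0544). Ehd2 (-0.17 ± 0.14 SE, males) and Cav1 (-0.44 ± 0.26 SE, females) were next.

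Lymphatic markers were tested in 3 of 4 cases, Ccl21a being at 0 in all libraries. The smallest p belonged in males to Lyve1 (0.89 ± 0.35 SE) and Pdpn (1.84 ± 0.9999 SE), and in females to Prox1 (0.89 ± 0.27 SE) and Lyve1 (0.39 ± 0.92 SE). Of genes typical of brain endothelium 3 of 5 were tested, with 2 higher in each sex. Besides Cldn5 the smallest p belonged to Abcb1a (-0.07 ± 0.41 SE, males) and Slc2a1 (0.65 ± 0.48 SE, females). Of 14 genes of the response to low oxygen 13 were tested, and their median was 0.04 in males and 0.006 in females. Bnip3 (-0.25 ± 0.10 SE) and Ndrg1 (0.29 ± 0.22 SE) had the smallest p in males, Ndrg1 (0.28 ± 0.12 SE) and Epas1 (0.41 ± 0.20 SE) in females. No gene of these 3 lists passed the adjusted threshold within a sex by the quasi-likelihood test of edgeR. Prox1 in females passed by DESeq2 (adjusted p 0.0486), as did Cldn5 in males, given above.

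Mural cells are the pericytes and smooth muscle that surround vessels. Of their 8 tested markers, 6 were lower in PE-/- males and 5 in PE-/- females. Rgs5, the most abundant and a pericyte marker, was at 587.2, 387.2, 553.5 and 400.7 CPM in PE+/- males and at 228.6, 384.2, 292.6 and 202.9 CPM in PE-/- males. In females it was at 586.7, 887.6, 843.9 and 396.3 CPM in PE+/- and at 315.9, 306.8 and 262.7 CPM in PE-/-. The genotypes were separate in each sex, narrowly so in males, and the share of all genes with this trait was not counted. In both sexes together Rgs5 fell by 0.98 on the log2 scale (SE 0.20, adjusted p 0.0249 by edgeR). The call was lost in 5 of 15 fits that left out 1 library, with an adjusted p of up to 0.0866 without PE-/- female replicate 3, and without the 4 posterior lobe libraries (-1.08, adjusted p 0.0507). Acta2 (-1.61 ± 1.01 SE, males) and Kcnj8 (-0.49 ± 0.24 SE, females) were next, and the others of the list did not pass. The summed level of the 9 mural genes was 439.5 to 632.7 CPM in PE+/- males against 241.4 to 428.8 CPM in PE-/- males. In females it was 442.5 to 947.7 against 304.0 to 384.5 CPM. Rgs5 was the larger part, so that these sums mostly follow that gene. A sum without Rgs5 was not computed, and no change in the list as a whole is read from them.

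Blood left in the vessels carries erythroid transcripts. All 5 erythroid genes had a lower mean in PE-/- of each sex, with medians of -0.89 and -0.85 and none past the threshold. Hbb-bt (-1.08 ± 0.56 SE) and Hbb-bs (-0.89 ± 0.47 SE) led in males, Hbb-bs (-0.94 ± 0.34 SE) and Hba-a2 (-0.83 ± 0.30 SE) in females. Their summed level was 498.3 to 1262 CPM in PE+/- males and 203.8 to 894.8 CPM in PE-/- males, and 570.4 to 1344 CPM against 383.5 to 790.2 CPM in females. The globin genes are near-identical copies, so counts may be split between them. The part of blood and mural content in the endothelial differences was not tested.

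Macrophage markers gave 5 of 7 higher in males and 2 of 7 in females, led by Adgre1 (0.77 ± 0.25 SE) and Cd68 (-0.33 ± 0.26 SE) in males and by Csf1r (0.41 ± 0.18 SE) and C1qa (-0.38 ± 0.18 SE) in females. All 4 tested markers of folliculostellate cells were higher in each sex, led by Cyp2f2 (0.43 ± 0.18 SE) and Aldh1a2 (0.25 ± 0.22 SE) in males and by Aldh1a2 (0.77 ± 0.14 SE) and Sox2 (0.66 ± 0.34 SE) in females. Of the posterior lobe markers, Oxt (1.15 ± 1.85 SE) and Scn7a (-0.83 ± 1.56 SE) led in males and Col25a1 (-3.00 ± 0.76 SE) and Scn7a (0.90 ± 0.43 SE) in females. None of these genes passed the adjusted threshold by the quasi-likelihood test of edgeR on the libraries compared. In females Aldh1a2 and Col25a1 passed by DESeq2 (adjusted p 0.00015 and 0.000935). Oxt and Avp were at 0 in all 7 female libraries.

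Beside these lists, the mean log2 CPM of the 8 endothelial genes without Plvap was 3.41 to 3.91 in PE+/- males and 3.01 to 3.33 in PE-/- males, with no overlap. It was 3.53 to 3.87 in PE+/- females and 3.23 to 3.68 in PE-/- females, which overlapped. With Plvap the male groups overlapped as well, at 3.44 to 4.07 and 3.25 to 3.56. Plvap was left out after its values were seen, and no share over all genes was computed for such a mean.

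**Figure D5:**
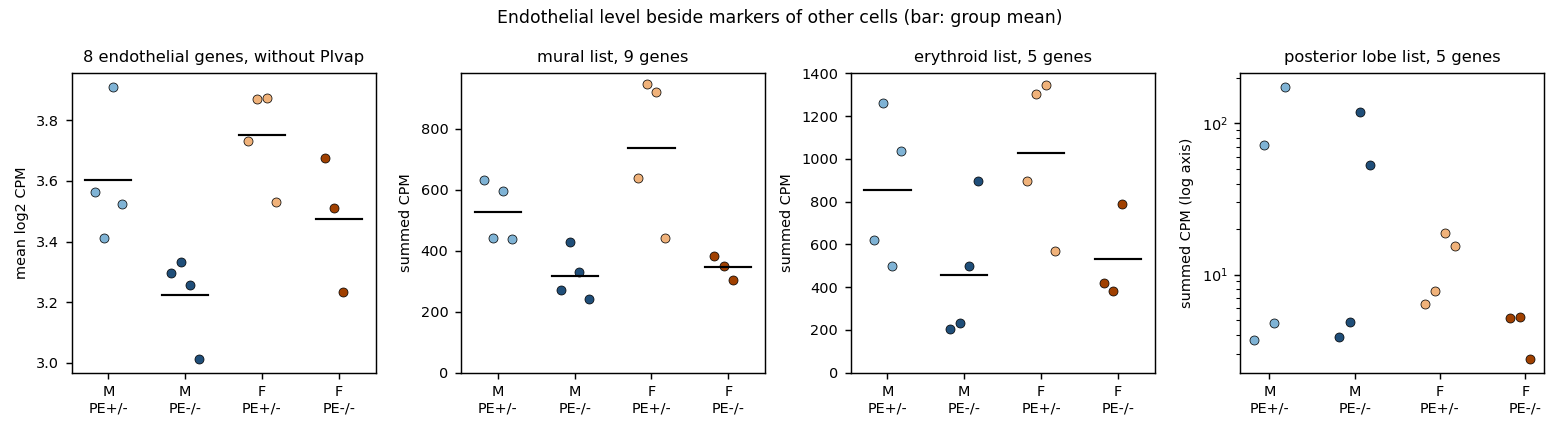
Mean log2 CPM of 8 endothelial genes without Plvap, and summed CPM of the mural, erythroid and posterior lobe lists (the last on a log axis), in every library (points) of the 4 groups, with the group mean as a bar in the first 3 panels. Endothelial levels, with Plvap left out after its values were seen, are lower in PE-/- males without overlap and overlap in females. The mural sum, of which Rgs5 is the larger part, is lower in PE-/- of each sex without overlap. The posterior lobe list is above 50 CPM in 4 male libraries, 2 of each genotype.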

How the data were processed

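Per the study's methods, RNA of whole pituitaries was made into libraries with a low-input kit, which the authors processed with cutadapt (trimming), STAR (alignment to mm10) and featureCounts. The deposited values were estimated counts, written as whole numbers and not normalized. Row names and the spacing of low values were those of a transcript assembly, with about 4 counts per fragment, a step the methods do not state, and strand use is not known. All 15 columns matched a sample by name and 0 were left over. Of rows sharing a symbol (93 symbols) the one with the most counts was used.

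After filterByExpr (minimum count 10, minimum total 15), genes were scaled by TMM and tested by the quasi-likelihood test of edgeR 4.0.16 in R 4.3.3 on the libraries compared, two-sided, with Benjamini-Hochberg adjustment over all genes and a threshold of 0.05. Log2 CPM used a prior count of 2. Gene positions and exon lengths were those of GENCODE M21 on mm10. Scripts were tested on simulated data. Within each group, every pair of libraries was further apart than counting error allows. Totals ran from 12982794 to 30238443 counts, and floors cover counting error only, as the reads had no molecular identifiers.

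The members and gene lists were chosen with earlier results of these data known. Named were the 10 members, list genes past the threshold, the 2 genes per list with the smallest p in each sex, and the 8 genes most like the endothelial mean (5 for Vegfa). Alternatives were DESeq2 1.42.0, the likelihood ratio test, DESeq2 size factors, library totals, no filter, a filter of 1 CPM, 1 fit of all 15 libraries, a replicate block, and leaving out each library. The fit of both sexes, the mean without Plvap, the sum without Ramp2 and leaving out 4 posterior lobe libraries were added after seeing the data. Sorted gonadotropes were not analysed here.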

Additional observations from a re-analysis of the deposited data

Results flagged for a closer look

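Of 51 checks of a group of 4 libraries over the members and the VEGF family, 3 had a library far from the others, and chance flags about 1 in 20 groups. Plvap was at 284.7 CPM in PE+/- male replicate 1, with the next highest of that group at 40.8 CPM. Emcn was at 20.2 CPM in PE+/- female replicate 3, with the next at 16.3 CPM. Vegfa was at 0 CPM in PE-/- male replicate 2, with the next at 0.354 CPM, which is 7 counts and under the floor.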

How the results depend on the processing

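Under all alternatives no member passed the adjusted threshold within a sex, between the sexes or in the interaction, and in the fit of both sexes 1 did (Emcn, DESeq2). The number of all genes past the threshold moved widely. For males, females, the sexes in PE+/-, the sexes in PE-/-, the interaction and both sexes, in this order, DESeq2 gave 206, 1431, 900, 41, 392 and 768 genes, and the likelihood ratio test 138, 710, 422, 33, 202 and 419. Without a low-count filter females gave 123 and the sexes in PE+/- 66. One fit of all 15 libraries gave 37 in males, 714 in females and 421 for the sexes in PE+/-. Leaving out 1 library gave 11 to 35, 29 to 244, 34 to 113, 7 to 27, 7 to 71 and 75 to 267 genes. Leaving out the 4 posterior lobe libraries left 0 in males, where only 4 libraries remained. The cause of the other shifts was not tested. Vegfa was at or under 12 counts in 10 libraries, so its fitted values here follow a few counts and are no measure of a change.

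Same-numbered libraries of different groups correlated at a median of -0.009 over 21 pairs with 2 above 0.1. Libraries with different numbers correlated at a median of -0.0135 over 63 pairs with 3 above 0.1. The replicate numbers thus gave no clear sign of pairing, which such correlations cannot exclude. With the number as a replicate block the 6 comparisons gave 0, 1, 0, 0, 11 and 88 genes. Signs turned under the block for Oxt in males (-0.35), Cdh5 in females (-0.0096), Kdr (-0.0048) and Plvap (0.31) between the sexes in PE+/-, and Tek (-0.084), Egfl7 (0.013) and Vegfa (0.17) in the interaction. Under the block the adjusted p of Vegfd in both sexes was 0.0588, and that of Pgf and of Cav2 0.0632.

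The number of members below 0, Vegfa included where it was fitted, was 2 between the sexes in PE+/- with library totals and with a filter of 1 CPM, and 2 in PE-/- without a filter and in the fit of all 15 libraries. Leaving out 1 library gave 2 to 5 in PE+/-, 0 to 3 in PE-/- and 1 to 6 in the interaction. Library totals turned Egfl7 (0.00048) and Abcb1a (0.0011) in males, Flt1 (0.059) and Egfl7 (0.031) in PE+/-, and Pecam1 (-0.020) and Tek (-0.073) in the interaction. Flt1 in PE+/- was at 0.00076 by the likelihood ratio test and at 0.0012 with a filter of 1 CPM. Without the posterior lobe libraries Jag2 (-0.32), Abcb1a (0.15) and Scn7a (1.45) turned in males and Cdh5 (0.00022) in both sexes.

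Leaving out 1 library gave these ranges where a sign turned. In males they were -0.27 to 0.11 for Egfl7, -1.69 to 0.41 for Plvap, -0.32 to 0.25 for Abcb1a, -0.84 to 2.52 for Oxt and -1.80 to 0.42 for Scn7a. In females they were -0.11 to 0.17 for Cdh5, -0.35 to 0.053 for Egfl7 and -0.44 to 0.052 for Flt1. In PE+/- they were -0.090 to 0.17 for Cdh5, -0.23 to 0.17 for Egfl7, -0.23 to 0.084 for Flt1, -0.16 to 0.15 for Kdr, -1.27 to 0.84 for Plvap and -0.87 to 0.21 for Vegfa. In PE-/- they were -0.29 to 0.090 for Egfl7, -0.053 to 0.18 for Emcn and -0.13 to 0.33 for Plvap. In the interaction they were -0.27 to 0.16 for Egfl7, -0.13 to 0.22 for Pecam1, -0.69 to 1.41 for Plvap, -0.15 to 0.16 for Tek, -0.20 to 0.088 for Tie1 and -5.23 to 0.068 for Vegfa. In both sexes it was -1.02 to 0.063 for Plvap. Calls were lost for Cav2 without PE+/- female replicate 2, PE-/- female replicates 1, 2 and 3, PE+/- male replicates 1 and 3 or PE-/- male replicate 1, and for Rgs5 without PE-/- female replicates 1, 2 and 3, PE+/- male replicate 3 or PE-/- male replicate 1. Cav2 was also lost without a low-count filter (adjusted p 0.0578). Within a sex Vegfd passed in males by the likelihood ratio test (adjusted p 4.42e-05) and with library totals (0.0401), Pgf in males by DESeq2 (0.00676) and the likelihood ratio test (0.0263), and Rgs5 in females by DESeq2 (0.00389), the likelihood ratio test (0.0383) and the fit of all 15 libraries (0.0359). The likelihood ratio test also gave Cldn5 in males (0.0261) and Ramp2 (0.00125), Col25a1 (0.00631) and Aldh1a2 (0.0406) in females, and the fit of all 15 libraries Aldh1a2 (0.0421). Between the sexes in PE+/- Vegfc passed by DESeq2 (0.000669) and in the fit of all 15 libraries (0.0242).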
